A study of Drosophila melanogaster with 9 samples.

Results

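Transcripts of 7 genes for tubulins and the core of the gamma-tubulin complex, *alphaTub84B*, *alphaTub84D*, *betaTub56D*, *betaTub60D*, *gammaTub23C*, *Grip84* and *Grip91*, were examined in RNA-Seq libraries of *Drosophila* S2 cells. The 7 genes were taken by symbol from the 17493 genes of the count table. No cut on their levels was used, but earlier results of these data were known. All 7 were among the 9231 genes that passed the filter on low counts. S2 cells are an embryo-derived line with features of blood cells, and those used here were the S2-DGRC stock. Cultures were treated with GFP dsRNA, which has no target in these cells and left them in mitotic cycles, with CycA dsRNA or with Myb dsRNA, and RNA was collected after 96 hours, with 3 biological replicates per group. The study used the CycA and Myb knockdowns to make induced endoreplicating cells (iECs), which copy their DNA without dividing, and compared each with the mitotic cycling control. No allele or transgene distinguished the groups, and all came from the same cell stock. The labels give 12% fetal bovine serum for all 9 cultures, whereas the study's methods describe extra serum for iECs, so a difference in serum cannot be told apart from a knockdown.

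Microtubules are polymers of a dimer of alpha-tubulin and beta-tubulin, and they form the mitotic spindle as well as the interphase network along which cargo moves. Gamma-tubulin does not enter the polymer wall but templates its growth. In flies it binds Grip84 and Grip91, the counterparts of human GCP2 and GCP3, to form the small gamma-tubulin complex, and further Grip proteins join these units into the gamma-tubulin ring complex.

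In CycA dsRNA iECs, *betaTub60D*, a beta-tubulin known from developing muscle in the fly, rose 2.30-fold, and *alphaTub84D*, the less abundant of both alpha-tubulin genes, fell to 0.576 of its control level. The major genes *alphaTub84B* and *betaTub56D* differed little between groups. In Myb dsRNA iECs, no gene of the 7 met both thresholds. The clearest difference there was in *gammaTub23C*, the gamma-tubulin gene of somatic fly cells, at 0.710 of the control, beside 0.718 in CycA dsRNA iECs, and both lay just inside the fold threshold. In the main fit, *Grip84* and *Grip91* lay within 7% of the control in both iEC types. Alternative fits reached log2 fold changes of -0.25 for *Grip84* and -0.19 for *Grip91* in CycA dsRNA.

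Total counts were 35061391 to 44280452 per library for GFP dsRNA, 29128930 to 42153033 for CycA dsRNA and 29154513 to 41715023 for Myb dsRNA. The targeted gene *CycA* was at 184 ± 3.04 CPM (SD, n = 3) in the control and 30.7 ± 10.9 CPM after CycA dsRNA, and *Myb* was at 215 ± 10.8 CPM in the control and 13.7 ± 1.25 CPM after Myb dsRNA. CPM are read counts divided by library size, which was adjusted by trimmed mean of M values (TMM), so they are shares of a library. With cultures of endoreplicating cells, fewer cells of a type and less RNA per cell cannot be told apart. Of 8 markers for blood-like cells, *srp*, *crq* and *Pxn* were at 206, 219 and 51.1 CPM in the control, while *Hml*, *He*, *NimC1* and *Sr-CI* were below 1 CPM. The 8 markers summed to 460 to 498 CPM in the control, 798 to 806 CPM in CycA dsRNA iECs and 491 to 512 CPM in Myb dsRNA iECs. Of these 8, 5 were called higher in CycA dsRNA and 2 in Myb dsRNA, and none lower. Of all tested genes, 21.2% and 14.9% were called higher. *eater* went from 3.10 CPM in the control to 49.3 CPM in CycA dsRNA, where *crq* and *He* were at 491 and 14.2 CPM. *srp* and *Pxn* were slightly lower, at 195 and 47.4 CPM in CycA dsRNA. The 5 neuron markers summed to 31.0 to 37.9 CPM in the control, 47.1 to 52.3 CPM in CycA dsRNA iECs and 42.0 to 43.0 CPM in Myb dsRNA iECs. *elav* made up most of each sum, at 31.8, 42.9 and 36.3 CPM, and was not called. Of the 4 tested genes, 3 and 2 were called higher and none lower, beside 21.2% and 14.9% of all tested genes. The tested genes besides *elav* were *nSyb*, *brp* and *futsch*, at only 0.382, 0.679 and 2.66 CPM in the control. The part of the blood-like and neuron markers in the results was not tested. Markers of fat body summed to at most 0.667 CPM in any library. Control replicates differed from each other with gene length: the rank correlation of a gene's deviation from its group mean with its exon length was 0.44, -0.52 and 0.25 across genes in control replicates 1, 2 and 3, against -0.18 to 0.22 in the other 6 libraries.

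Divided by exon length, the levels fell into the same order in each group. In the control, *alphaTub84B* had a mean of 1366 CPM per kb of exon and ranked 75th among tested genes, and *betaTub56D* had 1188 CPM per kb and ranked 85th. *betaTub60D* at 267 CPM per kb and *alphaTub84D* at 163 CPM per kb came next. *gammaTub23C* was at 39.9 CPM per kb, *Grip84* at 8.01 CPM per kb and *Grip91* at 7.36 CPM per kb. Libraries of neighbouring genes in this order did not overlap within a group, except *Grip84* and *Grip91* in Myb dsRNA. Together the 7 genes took 0.572 ± 0.00131% of all counts in the control, 0.630 ± 0.0334% in CycA dsRNA and 0.588 ± 0.0138% in Myb dsRNA (SD, n = 3). The smallest count behind any of these values was 681, for *Grip91*, and the largest was 104528, for *alphaTub84B*.

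**Figure D1:**
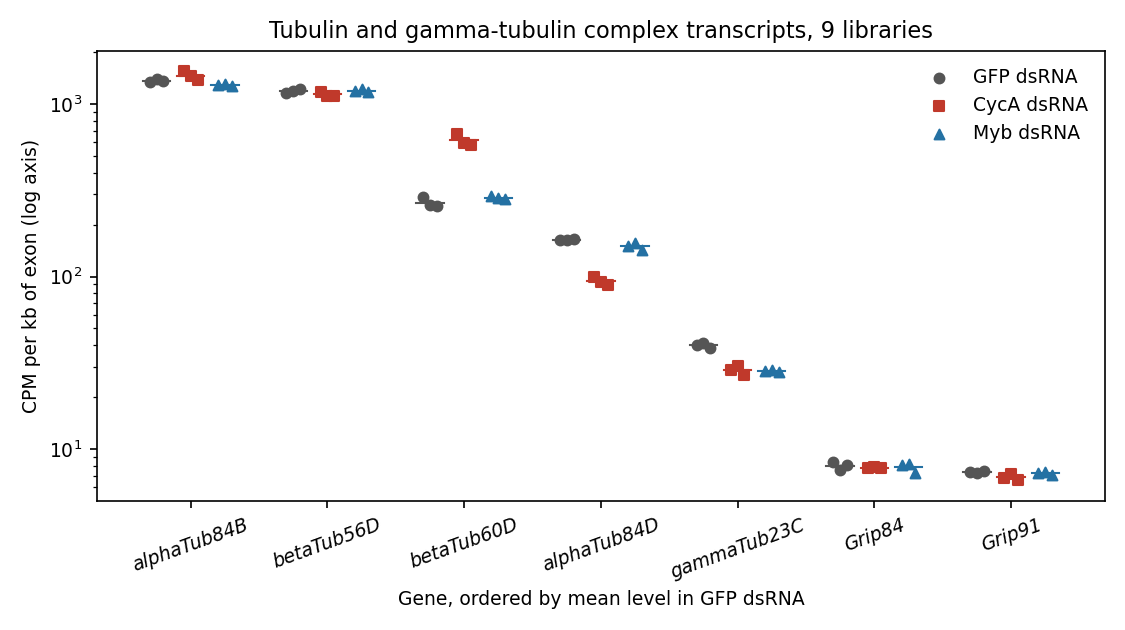
CPM per kb of exon (log axis) of the 7 genes in each of the 9 libraries. Points are libraries, and short lines are means of 3. Libraries of *betaTub60D* in CycA dsRNA lie between 582 and 669 CPM per kb, above all 6 others, and those of *alphaTub84D* in CycA dsRNA lie below all 6 others.

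The alpha-tubulin genes lie on chromosome 3R, *alphaTub84B* (FBgn0003884) at 7086599-7088839 with 2 exons and *alphaTub84D* (FBgn0003885) at 7530753-7532732 with 1 exon, both on the plus strand of the BDGP6.54 annotation and 441913 bases apart. Counts covered exons only, of 1752 and 1980 bases. The genes encode nearly identical proteins. How reads that fit both were counted is not given in the sources used here, so the split of reads between them is uncertain.

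*alphaTub84B* encodes the main alpha-tubulin of most fly cells. It was at 2351, 2439 and 2391 CPM in the control libraries, at 2714, 2539 and 2411 CPM after CycA dsRNA, and at 2244, 2278 and 2230.0 CPM after Myb dsRNA. The CycA dsRNA libraries overlapped the control and were the most spread, while the Myb dsRNA libraries all lay just below the control. Neither difference passed the edgeR quasi-likelihood test with Benjamini-Hochberg adjustment over all 9231 genes, with a log2 fold change of 0.09 for CycA dsRNA (95% interval -0.02 to 0.21, adjusted p = 0.136) and -0.09 for Myb dsRNA (-0.20 to 0.03, adjusted p = 0.178). CycA dsRNA stood above Myb dsRNA in all libraries, by 0.18 on the log2 scale (0.07 to 0.30, edgeR adjusted p = 0.00846), less than the fold threshold of 0.5.

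*alphaTub84D* was at 322, 322 and 325 CPM in the control libraries. It was at 196, 184 and 178 CPM after CycA dsRNA and at 296, 309 and 282 CPM after Myb dsRNA. All 3 CycA dsRNA libraries lay far below both other groups, and the Myb dsRNA libraries lay a little below the control. The fall in CycA dsRNA iECs was by a log2 fold change of -0.80 (SE 0.0485, edgeR adjusted p = 2.71e-09), and 5.42% of tested genes had a larger fall. In Myb dsRNA iECs the log2 fold change was -0.13 (SE 0.0479, edgeR adjusted p = 0.0344), less than the fold threshold. The direct contrast of CycA dsRNA with Myb dsRNA gave -0.67 (SE 0.0484, edgeR adjusted p = 1.85e-08).

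The beta-tubulin genes lie on chromosome 2R. *betaTub56D* (FBgn0284243) is at 19447319-19451600 on the minus strand, with 1869 bases in 3 exon blocks. *betaTub60D* is at 24305881-24313099 on the plus strand, with 2518 bases in 4 exon blocks. Its identifier is FBgn0003888 in the count table and FBgn0288686 in the annotation, and the 2 were matched by symbol. Beta-tubulins are also similar in their coding regions, and how shared reads were counted is not given in the sources used here. *betaTub56D*, the main beta-tubulin of most fly cells, was at 2159, 2230 and 2272 CPM in the control, at 2196, 2093 and 2082 CPM after CycA dsRNA, and at 2224, 2286 and 2202 CPM after Myb dsRNA. Both knockdown groups overlapped the control. The log2 fold change was -0.06 for CycA dsRNA (95% interval -0.17 to 0.04, edgeR adjusted p = 0.266) and 0.01 for Myb dsRNA (-0.10 to 0.12, edgeR adjusted p = 0.862).

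*betaTub60D* was at 724, 651 and 644 CPM in the control libraries. It was at 1684, 1496 and 1464 CPM after CycA dsRNA and at 736, 718 and 706 CPM after Myb dsRNA. The CycA dsRNA libraries were all higher than the other 6 libraries by a wide margin, and the Myb dsRNA libraries overlapped the control, whose replicate 1 was the highest of its group. In CycA dsRNA iECs the gene rose by a log2 fold change of 1.20 (SE 0.0633, edgeR adjusted p = 5.74e-10), a rise exceeded by 10.2% of tested genes. In Myb dsRNA iECs the log2 fold change was 0.10 (95% interval -0.04 to 0.23, edgeR adjusted p = 0.198). The direct contrast gave 1.10 (SE 0.0632, edgeR adjusted p = 1.45e-09). Its rank among tested genes by CPM per kb was 263 in the control and 128 in CycA dsRNA. Markers of muscle, where this gene is known in the fly, summed to 51.8 to 58.0 CPM in the control, 52.4 to 58.7 CPM in CycA dsRNA and 57.7 to 61.8 CPM in Myb dsRNA. *Mef2*, a factor also present in blood-like cells, made up most of that sum. Of the 6 markers, 5 were tested. Beside 21.2% and 14.9% of all tested genes, 3 of these, *Mhc*, *up* and *bt*, were called higher in CycA dsRNA and in Myb dsRNA. These had group means of 0.156, 0.00750 and 0.182 CPM in the control, 1.30, 0.247 and 0.642 CPM in CycA dsRNA, and 0.495, 0.322 and 3.77 CPM in Myb dsRNA. *Mef2* and *Mlc2* were not called, with log2 fold changes of -0.01 and -0.13 in CycA dsRNA and 0.03 and -0.24 in Myb dsRNA. *Act57B* was too low to be tested, at 0.183 CPM in the control and 0.0550 and 0.0606 CPM in the iECs, where every library lay below the control. The part of muscle-like expression in the *betaTub60D* difference was not tested.

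*gammaTub23C* (FBgn0260639) lies on chromosome 2L at 2972891-2974858 on the plus strand, with 1850 bases in 3 exon blocks and no overlapping gene in the annotation. It was at 73.8, 76.2 and 71.3 CPM in the control libraries, at 53.2, 56.0 and 49.7 CPM after CycA dsRNA, and at 52.5, 53.0 and 51.7 CPM after Myb dsRNA. All 6 knockdown libraries lay below all 3 control libraries, and the iEC types overlapped each other. The log2 fold change was -0.48 for CycA dsRNA (95% interval -0.58 to -0.38, edgeR adjusted p = 5.21e-07) and -0.49 for Myb dsRNA (-0.60 to -0.39, edgeR adjusted p = 9.54e-07). Both passed the test on p and missed the fold threshold of 0.5, which lies inside both intervals. CycA dsRNA and Myb dsRNA differed by 0.02 (-0.09 to 0.12, edgeR adjusted p = 0.783). Larger falls were seen in 15.6% of tested genes after CycA dsRNA and in 7.59% after Myb dsRNA. The call turned on single libraries and on the tool: without control replicate 3, Myb dsRNA replicate 1 or Myb dsRNA replicate 2 it passed in both comparisons, and without CycA dsRNA replicate 2 it passed in CycA dsRNA, with log2 fold changes over all such fits of -0.54 to -0.44 for CycA dsRNA and -0.55 to -0.47 for Myb dsRNA. DESeq2 gave -0.51 for Myb dsRNA and called the gene there.

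*Grip84* (FBgn0026430) lies on chromosome X at 19559431-19565764 and *Grip91* (FBgn0001612) on the same chromosome at 13736570-13744683, both on the minus strand, with 6125 and 3571 bases of exon. Exons of *Grip84* overlap the microRNA genes *mir-978* and *mir-979* on the opposite strand, and exons of *Grip91* overlap *CG11151* there. The libraries were made with a stranded kit, but whether strand was used in counting is not given in the sources used here, so their counts could include reads of those neighbours.

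*Grip84* was at 51.3, 46.5 and 49.4 CPM in the control, at 47.7, 48.0 and 47.3 CPM after CycA dsRNA, and at 49.8, 50.1 and 44.6 CPM after Myb dsRNA. The 3 groups overlapped. The log2 fold change was -0.04 for CycA dsRNA (95% interval -0.16 to 0.07, edgeR adjusted p = 0.480) and -0.03 for Myb dsRNA (-0.14 to 0.08, edgeR adjusted p = 0.657). By exon length it is the longest of the 7 genes. With the trend with gene length removed from each library, the edgeR adjusted p was under 0.05 in both iEC types. The log2 fold changes were then -0.25 for CycA dsRNA (5.75e-05) and -0.19 for Myb dsRNA (0.00131), below the fold threshold. That trend was taken against the mean of all 9 libraries, so it includes differences between groups that follow gene length. The part of the control libraries in this shift was not tested.

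*Grip91* was at 26.3, 25.8 and 26.8 CPM in the control, at 24.2, 25.7 and 23.6 CPM after CycA dsRNA, and at 26.1, 26.4 and 25.3 CPM after Myb dsRNA. The CycA dsRNA libraries lay just below the control and the Myb dsRNA libraries overlapped it. The log2 fold change was -0.10 for CycA dsRNA (95% interval -0.21 to 0.01, edgeR adjusted p = 0.0831) and -0.02 for Myb dsRNA (-0.13 to 0.08, edgeR adjusted p = 0.735). Across 18 alternative settings the CycA dsRNA value ran from -0.19 to -0.05. Its lowest adjusted p there was under 0.05, and no setting called the gene. The intervals of *Grip84* and *Grip91* exclude a log2 fold change of 0.5 in either direction.

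Over the 7 genes, 1 was called higher and 1 lower in CycA dsRNA iECs, where 35.3% of all tested genes were called, 21.2% higher and 14.1% lower. None was called in Myb dsRNA iECs by edgeR, where 21.7% of tested genes were, 14.9% higher and 6.78% lower. The unadjusted p was under 0.05 for 2 of them there, *alphaTub84D* and *gammaTub23C*, and DESeq2 called 1, *gammaTub23C*. At an adjusted p under 0.05 and any fold, 3 of the 7 passed in CycA dsRNA beside 70.7% of tested genes, 2 in Myb dsRNA beside 57.7%, and 3 in the direct contrast beside 66.3%. In the direct contrast 1 was higher and 1 lower in CycA dsRNA, where 30% of tested genes were called, 15.4% higher and 14.5% lower. Groups did not overlap for 4 of the 7 in CycA dsRNA against GFP dsRNA, where 72.5% of tested genes did not, for 3 in Myb dsRNA against GFP dsRNA, where 64.3% did not, and for 4 in the direct contrast, where 72.8% did not. The median log2 fold change of the 7 was -0.06 in CycA dsRNA and -0.03 in Myb dsRNA, where the medians of all tested genes were -0.00037 and 0.0061. Both comparisons used the same control libraries.

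**Figure D2:**
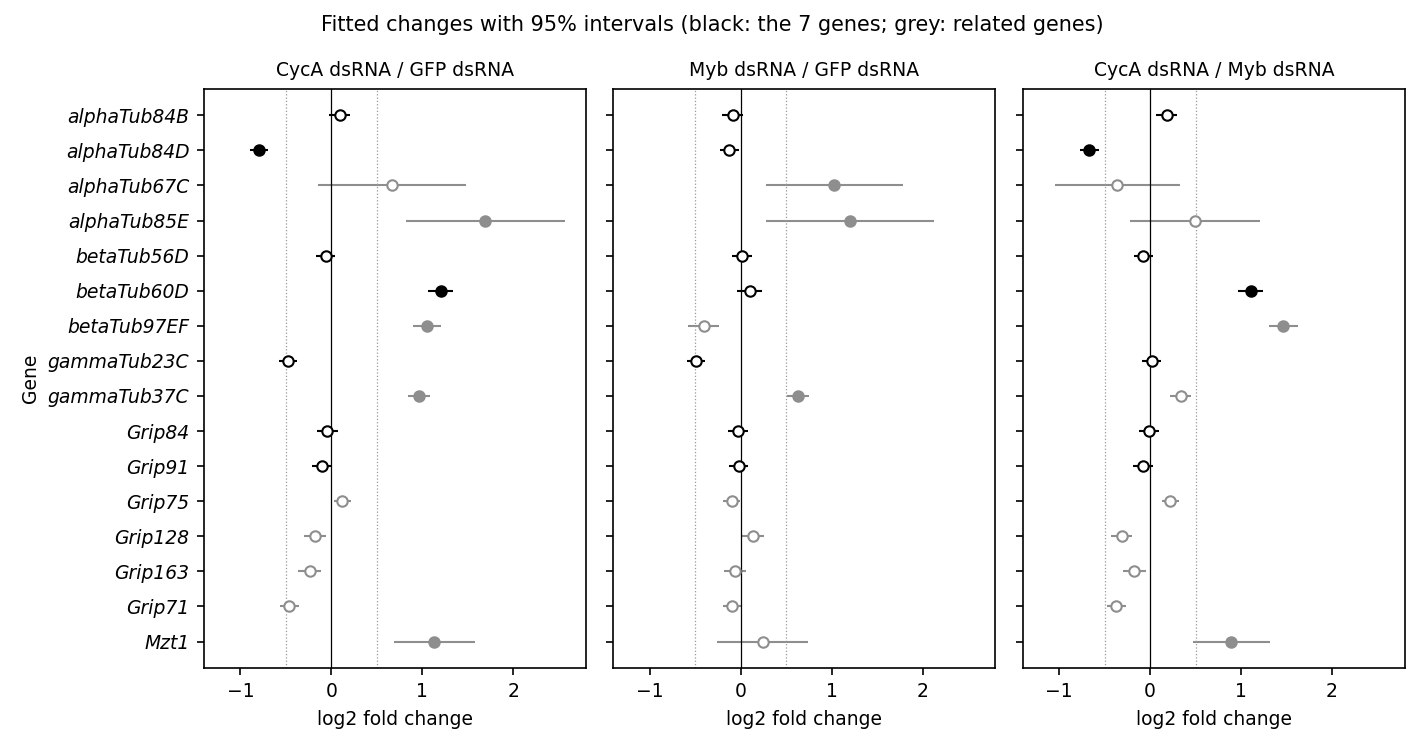
Fitted log2 fold changes with 95% intervals for the 7 genes (black) and for other tested tubulin and ring complex genes (grey) in the 3 comparisons. Filled points were called, open points were not, and dotted lines mark the fold threshold of 0.5. *betaTub60D* at 1.20 and *alphaTub84D* at -0.80 are the only black points that are filled in the left panel, and no black point is filled in the middle panel.

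The balance within each tubulin class was measured inside each library, from counts per kb of exon, so that no scaling between libraries enters. *betaTub60D* made up 19.9%, 17.8% and 17.4% of the sum of *betaTub60D* and *betaTub56D* in the control, 36.3%, 34.7% and 34.3% after CycA dsRNA, and 19.7%, 18.9% and 19.2% after Myb dsRNA. Its mean share thus stood at 35.1 ± 1.05% in CycA dsRNA, beside 18.4 ± 1.37% in the control and 19.3 ± 0.411% in Myb dsRNA (SD, n = 3). *alphaTub84D* made up 10.8%, 10.5% and 10.7% of the sum of both alpha-tubulin genes in the control, 6.02%, 6.03% and 6.13% after CycA dsRNA, and 10.5%, 10.7% and 10.1% after Myb dsRNA. The CycA dsRNA libraries were separate from both other groups in each share.

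*gammaTub23C* per kb was 5.07, 5.56 and 4.95 times the mean of *Grip84* and *Grip91* in the control, 3.94, 4.03 and 3.75 times after CycA dsRNA, and 3.68, 3.68 and 3.89 times after Myb dsRNA. All knockdown libraries lay below all control libraries, at 75.2% and 72.2% of the control mean. The ratio sets 1850 bases of exon against 6125 and 3571, so the trend with gene length in the control libraries can enter it. It was not recomputed with that trend removed, and the part of the trend in this difference was not tested. In a two-sided exact permutation test over libraries, groups of 3 against 3 cannot go below p = 0.1, and that value was reached by both shares in CycA dsRNA against each other group and by the gamma-tubulin ratio in each iEC type against the control (adjusted p = 0.15 over 9 comparisons). The *betaTub60D* share in Myb dsRNA against the control gave p = 0.4, the *alphaTub84D* share gave p = 0.3, and the gamma-tubulin ratio in CycA dsRNA against Myb dsRNA gave p = 0.2 in the same exact test, with adjusted p of 0.4, 0.338 and 0.257. None of these comparisons can pass 0.05 in this design.

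The summed level of both alpha-tubulin genes was 1529 ± 24.9 CPM per kb in the control, 1552 ± 91.5 in CycA dsRNA and 1434 ± 20.6 in Myb dsRNA, and that of both beta-tubulin genes was 1455 ± 14.5, 1751 ± 81.0 and 1483 ± 25.0 CPM per kb (SD, n = 3). The ratio of alpha-tubulin to beta-tubulin transcripts was thus 1.05 ± 0.0173 in the control, 0.886 ± 0.0188 in CycA dsRNA and 0.967 ± 0.00298 in Myb dsRNA. This ratio was chosen after the values were seen and carries no test.

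**Figure D3:**
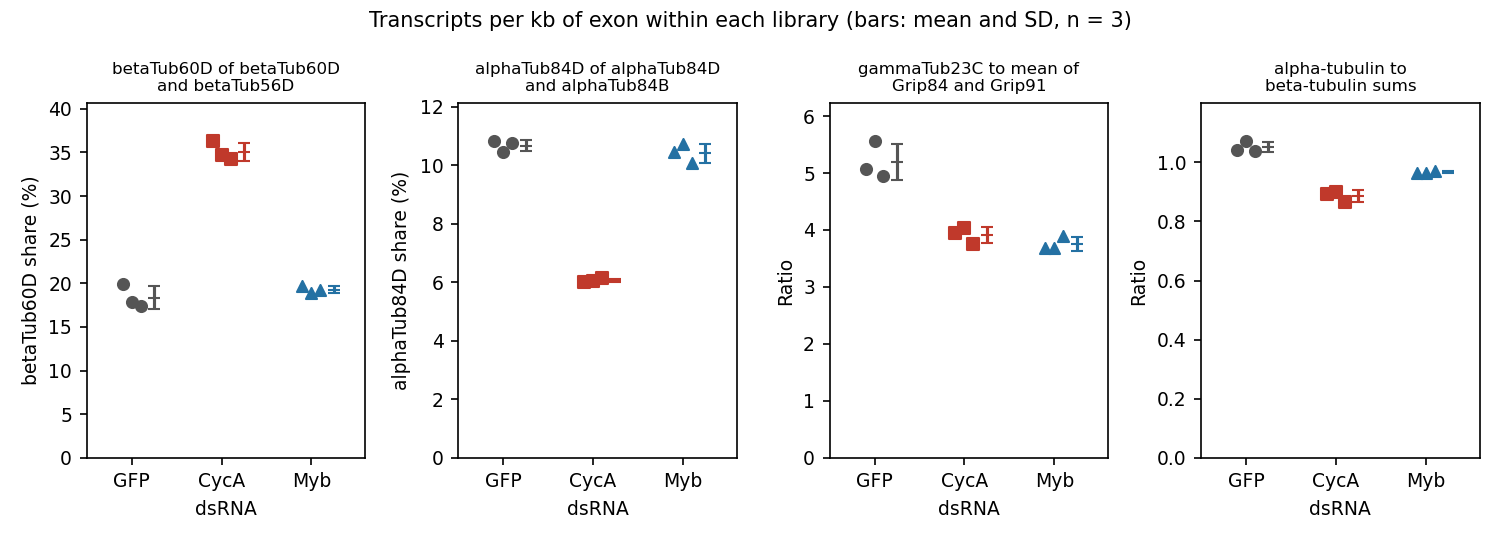
Shares and ratios within each library, from transcripts per kb of exon. Points are libraries, and bars give the mean and SD of 3. The *betaTub60D* share is 34.3% to 36.3% in CycA dsRNA and at most 19.9% elsewhere, and the ratio of *gammaTub23C* to *Grip84* and *Grip91* is at most 4.03 in both iEC types and at least 4.95 in the control.

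Other genes with the most similar pattern were found by the Pearson correlation of log2 CPM over the 9 libraries, which share their scaling and fall into 3 groups. These values are descriptive and carry no test. For *alphaTub84D* these were *CG6425* (r = 0.997), *Pfas*, an enzyme of purine synthesis (0.996), and *Dbp21E2*, an RNA helicase gene (0.996). For *betaTub60D* they were *CG8602* (0.997), *CG10359* (0.997) and *rgn* (0.996), and their log2 fold changes in CycA dsRNA were 0.90, 3.90 and 4.003. For *gammaTub23C* they were *CG13692* (0.991), the centriole gene *Poc1* (0.991) and the tRNA synthetase gene *CysRS* (0.990), with log2 fold changes of -0.92, -1.64 and -0.36 in CycA dsRNA and -0.94, -1.58 and -0.42 in Myb dsRNA.

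*alphaTub84B* was nearest to *CG4332* (0.971), *CG3342* (0.971) and *l(2)k09913* (0.967), *betaTub56D* to *CG33158* (0.937), *Try29F* (0.920) and *CG42676* (0.906), *Grip91* to *Tango6* (0.922), *TBC1D5* (0.921) and *Ucp4A* (0.906), and *Grip84* to *Vav* (0.876), *CR43671* (0.863) and *CG3982* (0.824). Among the 7 genes the correlation furthest from 0 was that of *alphaTub84D* with *betaTub60D* (r = -0.97, n = 9 libraries). *gammaTub23C* had an r of 0.28 with *Grip84* and 0.56 with *Grip91*, the proteins it is bound to in the complex.

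A list of the other tubulins held 6 genes, and 4 of them passed the filter on low counts. In the control, *betaTub97EF* at 11.6 CPM per kb and *gammaTub37C* at 8.26 CPM per kb stood near *Grip84*, while *alphaTub67C* and *alphaTub85E* were near the floor of detection. *betaTub97EF* was at 21.6 ± 1.28 CPM in the control, 45.1 ± 4.996 CPM in CycA dsRNA and 16.3 ± 0.628 CPM in Myb dsRNA (SD, n = 3). Like *betaTub60D* it rose in CycA dsRNA iECs, with a log2 fold change of 1.05 (edgeR adjusted p = 9.26e-09). The corresponding value for Myb dsRNA was -0.41 (edgeR adjusted p = 0.000452), under the fold threshold. *gammaTub37C*, the maternal gamma-tubulin of the fly egg, was at 13.5 ± 0.650 CPM in the control, 26.3 ± 0.824 CPM in CycA dsRNA and 20.9 ± 0.770 CPM in Myb dsRNA.

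*gammaTub37C* rose in both iEC types, by 0.97 (edgeR adjusted p = 1.86e-09) and 0.63 (edgeR adjusted p = 5.31e-07) on the log2 scale, while its paralog *gammaTub23C* was lower in the same libraries. *alphaTub85E* rose from 0.163 to 0.540 CPM in CycA dsRNA and 0.372 CPM in Myb dsRNA, and *alphaTub67C*, an egg alpha-tubulin, from 0.287 to 0.586 CPM in Myb dsRNA. In all, edgeR called 3 of 4 higher and none lower in each iEC type. In Myb dsRNA the calls of *alphaTub85E* and *alphaTub67C* rest on few reads. Alternatives chosen after the data were seen differed. Both calls were lost in DESeq2 with all 9 libraries (adjusted p = 0.0606 and 0.0529). They were also lost in edgeR without control replicate 2 (adjusted p = 0.0641 and 0.0744). Each of these fits left 1 of 4, *gammaTub37C*. With the trend in gene length removed, *alphaTub85E* and *alphaTub67C* stayed called, at log2 fold changes of 1.25 and 1.08 (edgeR adjusted p = 0.0168 and 0.0123). Markers of germ line and testis, where some of these tubulins are used, summed to 10.4 to 12.0 CPM in the control, 16.2 to 18.7 CPM in CycA dsRNA and 24.5 to 26.1 CPM in Myb dsRNA. The largest part was *osk*, at 6.18, 8.22 and 12.2 CPM. Of the 5 tested, 3 were called higher in CycA dsRNA and 4 in Myb dsRNA, none lower, beside 21.2% and 14.9% of all tested genes. The part of these markers in the tubulin differences was not tested.

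Of 7 further subunits of the gamma-tubulin ring complex, 5 passed the filter, and *t-Grip84* and *t-Grip91*, the testis counterparts of *Grip84* and *Grip91*, were at or near 0. In CycA dsRNA the log2 fold changes were -0.46 for *Grip71*, which links the ring complex to augmin, -0.24 for *Grip163*, -0.18 for *Grip128* and 0.12 for *Grip75*. Each had an edgeR adjusted p under 0.05, and none met the fold threshold. *Mzt1*, a small ring subunit listed as *CG42787*, rose by 1.13 (edgeR adjusted p = 0.000189), from 0.555 to 1.22 CPM, and its exon overlaps *CG32298* and *CG32299* on the opposite strand. In Myb dsRNA none of the 5 was called by edgeR or by DESeq2, where edgeR called 21.7% of all tested genes. The log2 fold changes of the 5 ran from -0.10 to 0.24. The unadjusted p was under 0.05 for 2 of them, *Grip75* and *Grip128*, and the smallest edgeR adjusted p was 0.0515.

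A list of 13 genes that bring gamma-tubulin to centrosomes and spindles held 8 augmin genes, which act within the spindle, 4 centrosome genes and *polo*. Of the 13, 11 fell and none rose in CycA dsRNA iECs, with a median log2 fold change of -1.24. In Myb dsRNA iECs 7 fell and none rose, with a median of -0.61. Among all tested genes, 14.1% were called lower and 21.2% higher in CycA dsRNA, and 6.78% lower and 14.9% higher in Myb dsRNA. The genes of the 13 that fell in Myb dsRNA were *polo* and 6 augmin genes, and none of the 4 centrosome genes was called there. The kinase gene *polo* fell from 216 to 51.7 CPM after CycA dsRNA and to 98.9 CPM after Myb dsRNA, log2 fold changes of -2.06 and -1.13. The augmin genes *msd1* and *msd5* fell by 2.00 and 1.95 in CycA dsRNA and by 1.39 and 1.66 in Myb dsRNA. The centrosome gene *Spd-2*, from 57.5 CPM in the control, was at 26.2 CPM in CycA dsRNA, a fall of 1.13, and at 63.9 CPM in Myb dsRNA, a log2 fold change of 0.15. *asl* fell by 0.96 in CycA dsRNA and had a log2 fold change of -0.30 in Myb dsRNA. *cnn*, a scaffold that holds gamma-tubulin at the centrosome, had log2 fold changes of -0.32 and -0.04, and *Plp* of 0.03 and 0.22, none of them called. With the trend in gene length removed, an alternative for these lists chosen after the data were seen, *cnn* was called lower in CycA dsRNA at -0.53 (edgeR adjusted p = 4.19e-08) and was at -0.20 in Myb dsRNA. *Plp* turned to -0.31 and -0.03, and *wac*, an augmin gene, lost its Myb dsRNA call at -0.499. The direct contrast of CycA dsRNA with Myb dsRNA called 7 of 13 lower and none higher, beside 14.5% and 15.4% of all tested genes. The counts of the 13 that fell in CycA dsRNA and Myb dsRNA were 12 and 6 with the trend in gene length removed. They were 11 and 7 both in DESeq2 and without control replicate 2, also chosen after the data were seen.

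Few tubulin folding genes met the fold threshold. Of 20 genes for the chaperonin, prefoldin and the tubulin cofactors, 1 fell in CycA dsRNA and none rose. Among all tested genes, 14.1% were called lower and 21.2% higher there. None of the 20 was called in Myb dsRNA by edgeR or by DESeq2, where edgeR called 21.7% of all tested genes. Of the 20 genes, 10 in CycA dsRNA and 9 in Myb dsRNA were not called but had an edgeR adjusted p under 0.05. Among all tested genes, 70.7% and 57.7% passed on adjusted p at any fold. In CycA dsRNA, *Pfdn1* was at -0.43 and *TBCB* at 0.33 on the log2 scale. The gene that fell was the prefoldin subunit *Pfdn4*, by 0.70 on the log2 scale, and with the trend in gene length removed it was at -0.49 and not called. The 8 chaperonin genes *CCT1* to *CCT8* lay between -0.23 and 0.06 in CycA dsRNA, and the medians of all 20 genes were -0.03 in CycA dsRNA and -0.08 in Myb dsRNA.

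Of 15 genes written down for tubulin modification, 14 were matched to the count table and 9 passed the filter. *NnaD*, a carboxypeptidase gene of the family that trims polyglutamate chains from tubulin in mammals, was at 20.8 CPM in the control, 45.9 CPM in CycA dsRNA and 14.5 CPM in Myb dsRNA. It rose by a log2 fold change of 1.142 after CycA dsRNA and fell by 0.52 after Myb dsRNA (edgeR adjusted p = 3.35e-10 and 8.10e-06). *TTLL4B*, a tubulin ligase-like gene, fell by 1.20 in CycA dsRNA, from 11.7 to 5.06 CPM, and was at 14.9 CPM in Myb dsRNA. *TTLL6B* rose by 0.57 in CycA dsRNA, from 1.81 to 2.69 CPM. The acetylase gene *Atat* had log2 fold changes of 0.07 and -0.14, and the deacetylase gene *HDAC6* of 0.18 and 0.31, none of them called. In sum 2 of 9 rose and 1 fell in CycA dsRNA, and 1 fell in Myb dsRNA. Among all tested genes, 21.2% were called higher and 14.1% lower in CycA dsRNA, and 14.9% higher and 6.78% lower in Myb dsRNA. With the trend in gene length removed, *TTLL4A*, at -0.43 and not called in CycA dsRNA with the trend kept, was also called lower there at -0.69 (edgeR adjusted p = 2.97e-11), so that 2 fell.

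**Figure D4:**
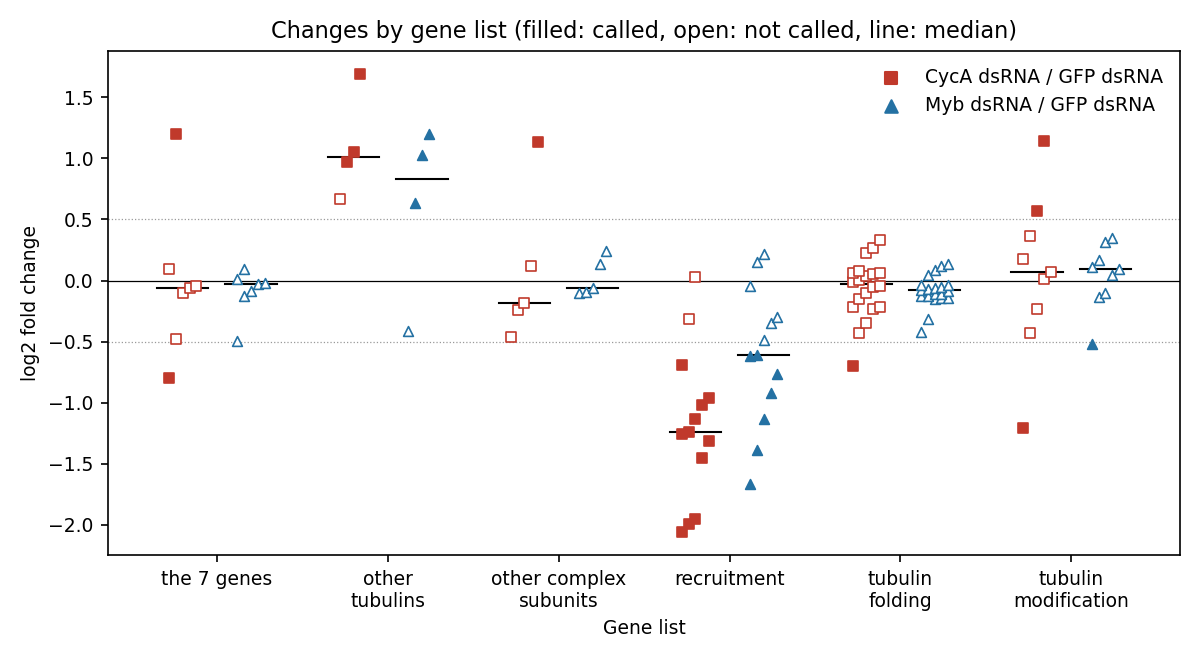
Log2 fold changes against GFP dsRNA of every tested gene in each list, for CycA dsRNA (squares) and Myb dsRNA (triangles). Filled points were called, open points were not, black lines are list medians and dotted lines mark the fold threshold of 0.5. The medians of the recruitment genes are -1.24 and -0.61, whereas those of the 7 genes are -0.06 and -0.03.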

How the data were processed

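Libraries of poly-A RNA from S2 cells were made by the authors with a stranded kit. Per the submitters' processing notes and the study's methods, reads were checked with FastQC 0.11.5, mapped with STAR 2.6.1a and counted over exons with featureCounts. The deposited counts are raw values per gene, which the authors did not normalize. Their own tables of fold changes and p-values, made with DESeq2 1.14.1, and the tissue libraries were not used here. Strand setting and the treatment of multi-mapping reads are not given in the sources used here.

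Counts were fitted with edgeR 4.0.16 in R 4.3.3. The filter on low counts (minimum 10) left 9231 genes. Scaling was by TMM, and 1 model of 3 groups covered all 9 libraries. Adjusted p-values are Benjamini-Hochberg values over all 9231 genes. Calls needed an adjusted p under 0.05 and a log2 fold change beyond 0.5 in either direction, as in the study. Levels are CPM, divided by exon length where so named. Correlations used a prior count of 2.

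The 7 genes, the gene lists and the alternatives were chosen with earlier results of these data known. All 7 genes, the tested genes of each list, and the 3 nearest genes by correlation could be named. Alternatives were DESeq2 1.42.0, other scalings, filters and groups in the fit, no fold threshold, removal of the trend with gene length, a replicate block and each library left out. The trend was fitted in each library against the mean of all 9, so differences between groups that follow gene length were removed with it. The fits were tested on simulated data. Gene positions come from BDGP6.54, whose exon lengths for the 7 genes equal those of the count table. Intervals cover these replicates only.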

Additional observations from a re-analysis of the deposited data

How the results depend on the processing

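Across 18 alternative settings, *betaTub60D* stayed called higher and *alphaTub84D* called lower in CycA dsRNA against GFP dsRNA, with log2 fold changes of 1.13 to 1.25 and -0.84 to -0.74. Without a fold threshold, genes called were 3208 higher and 3322 lower in CycA dsRNA, 2646 and 2683 in Myb dsRNA, and 2904 and 3219 in the direct contrast. Of the 7 genes, 2 were then lower in CycA dsRNA, 2 lower in Myb dsRNA and 2 higher in the direct contrast. A filter of 1 CPM in every library of a group tested 7859 genes and called 852 higher in Myb dsRNA. The main fit tested 9231 genes and called 1379 higher there. The cause of this difference was not tested. DESeq2 and the fit without a filter each called 1 of the 7 lower in Myb dsRNA, *gammaTub23C*. With single libraries left out, the count of the 7 called lower was 1 to 2 in CycA dsRNA and 0 to 1 in Myb dsRNA, again through *gammaTub23C*. Why it crossed the threshold was not tested. Counts not divided by exon length moved the *alphaTub84D* share differences to -5.10 and -4.81 percentage points, against GFP dsRNA and Myb dsRNA, those of the *betaTub60D* share to 18.9 and 17.8, and the gamma-tubulin ratio differences to -0.49 in CycA dsRNA and -0.54 in Myb dsRNA, by construction.

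Signs turned only for log2 fold changes near 0 that were not called. *Grip84* was at 0.0107 in CycA dsRNA with the stricter filter, at 0.00591 in Myb dsRNA with upper-quartile factors, and in the direct contrast at 0.0127 with the stricter filter, 0.00361 with only 2 groups in the fit and -0.0700 to 0.00260 with libraries left out. In Myb dsRNA, *Grip84* ran from -0.0842 to 0.0239 with libraries left out, *Grip91* was at 0.0139 with upper-quartile factors and 0.00624 with the stricter filter, and *betaTub56D* was at -0.00218 in DESeq2, -0.0160 without a filter and -0.0311 to 0.0217 with libraries left out. *gammaTub23C* in the direct contrast ran from -0.0288 to 0.0608 with libraries left out. The cause of these turns was not tested.

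Replicate numbers of the sample titles were not taken to pair the samples in the main fit. Deviations of same-numbered libraries correlated at -0.0465 to 0.0969, and those of differently numbered libraries at -0.0880 to 0.0364. The ranges overlapped, and a weak pairing was not excluded. The third CycA dsRNA and Myb dsRNA libraries carry the number 4 in the names of their reads, so replicate 3 is shared with the control by title only, and both this check and the block depend on that. With the replicate block, 1936 genes were called higher and 1305 lower after CycA dsRNA, 1378 and 621 after Myb dsRNA, and no call of the 7 genes changed.

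With 3 libraries a group, changes of *gammaTub23C* size fall on either side of the fold threshold, and exact tests of shares cannot pass 0.05. Counts of the 7 genes were at least 681 per library, the lowest for *Grip91*, where counting error weighs most. Reads shared by near-identical tubulin genes, reads from opposite-strand neighbours and the serum of the cultures cannot be separated with these files.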
